A study of Mus musculus with 12 samples.

Results

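Whole ears of 2-week-old mice homozygous for Spade (Spade/Spade) were compared with whole ears of 2-week-old wild-type mice. The 4 arrays are those that the labels place at this age, 2 of Spade ears (replicates 2 and 3) and 2 of wild-type ears (replicates 1 and 2), of 12 arrays in the series. The other 8 arrays hold ears of the same genotypes at 4 and 6 weeks, 2 for each genotype and age, and their differences are set beside those at 2 weeks. They also enter the choice of probe sets, the filter on low levels and the estimate of the spread behind each standard error and p-value. Total RNA was hybridised to Affymetrix Mouse Genome 430 2.0 arrays, which measure a gene by 1 or more probe sets. No treatment is named for any group. Spade is known as a point-mutant allele of Jak1 carried in every cell, so the tissue is mutant throughout and not in 1 cell type. The labels do not say which animals or litters the arrays came from, so the p-values below measure the spread between these arrays, which may be technical.

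JAK1 is a kinase bound to the inner side of cytokine receptors. With its partner kinases it phosphorylates STAT proteins when an interferon or a cytokine such as IL-4, IL-6 or IL-22 binds outside, and the STAT proteins then enter the nucleus and switch on target genes. In skin these signals act on keratinocytes of the epidermis and on leukocytes below it. An ear also holds hair follicles that pass through growth and rest largely in step, a plate of cartilage, fat and strips of skeletal muscle.

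Levels are GCRMA values on a log2 scale, with a floor of 2.14 and a highest value of 16.6. Differences are a Spade value minus a wild-type value on that scale, so that 1 is a 2-fold difference. MAS5 called between 54.0% and 58.1% of probe sets present on the 4 arrays. The ear markers Krt14 and Krt10 (epidermis), Col1a1 (dermis), Col2a1 (cartilage), Acta1 and Ckm (muscle), Adipoq (fat), Ptprc (leukocytes) and Pecam1 (vessels) were called present on all 4. Xist, the RNA of the inactive X chromosome, read 12.59 and 12.68 on the Spade arrays, against 12.48 and 12.52 on the wild-type arrays, and Eif2s3y, Kdm5d and Uty of the Y chromosome lay at the floor on all 4, so the 4 arrays do not differ in these sex-linked genes. Jak1 itself read 11.51 and 11.67 on the Spade arrays, against 12.14 and 11.65 on the wild-type arrays. The difference was -0.30 ± 0.16 (standard error, limma adjusted p = 0.63), and a level of the transcript says nothing of a point mutation in it.

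The Spade arrays differed from each other far more than the wild-type arrays did. Over the 11984 genes tested, the correlation of levels was 0.939 between the Spade arrays and 0.994 between the wild-type arrays. The median absolute difference within the pair was 0.30 for Spade and 0.135 for wild type. Levels lay at least 1 apart for 1269 genes in the Spade pair and for 77 in the wild-type pair. Most displaced genes were on replicate 3. Replicate 2 stood at least 1 above the wild-type mean for 113 genes (0.943% of the genes tested) and at least 1 below it for 112 (0.935%), whereas replicate 3 did so for 521 (4.35%) and 564 genes (4.71%).

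**Figure D1:**
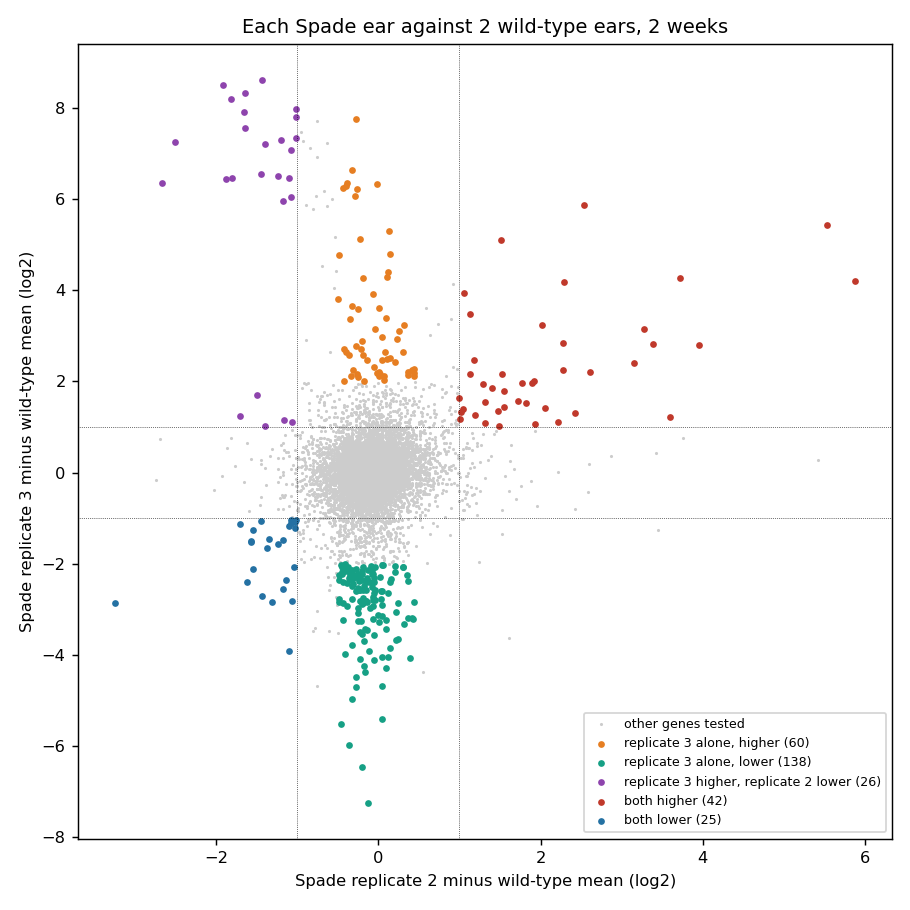
Difference of each gene from the mean of the 2 wild-type arrays, on Spade replicate 2 (horizontal axis, log2) and on Spade replicate 3 (vertical axis, log2), for 11984 genes. The 42 genes higher on both arrays lie at upper right and the 25 lower on both at lower left, while 60 and 138 genes form a vertical band where replicate 3 alone is displaced, and 26 genes at upper left are higher on replicate 3 and lower on replicate 2.

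No gene passed the threshold when both Spade arrays were compared with both wild-type arrays. In limma, with the spread estimated over all 12 arrays, 0 of 11984 genes (0.0%) had an adjusted p under 0.05, with 336 genes higher (2.8%) and 636 lower (5.31%) at an unadjusted p under 0.05. The lowest adjusted p of a gene higher on both Spade arrays was 0.15, for Ccl8. The rank product criterion named by the submitters, a 2-fold difference with an estimated false discovery rate under 0.05, called 3 genes (0.025%), Krt84 and Fetub higher and Gng13 lower. Between single genes, 2 arrays against 2 allow an exact two-sided p no lower than 0.333. The differences below are therefore descriptions of 4 arrays, and each Spade array is given on its own.

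A comparison of 1 Spade array with the wild-type arrays, which assumes that the lone array varies like the other groups, gave very different counts. Without replicate 2, limma called 547 genes higher (4.56%) and 640 lower (5.34%) on replicate 3. Without replicate 3 it called 2 genes (0.0167%) on replicate 2, Cap1 (difference 3.45 ± 0.30, adjusted p = 0.014) and Sall2 (-2.69 ± 0.21, adjusted p = 0.011), both named after their values were seen. A fit with each Spade array as a group of its own called 837 genes (6.98%) different between replicate 3 and replicate 2, 479 of them higher on replicate 3.

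Few genes were displaced alike in both Spade ears. A gene was counted as shared when both Spade arrays lay on the same side of both wild-type arrays and each stood at least 1 from the wild-type mean. By this rule 42 genes were higher (0.35%) and 25 lower (0.209%). Of the 42 higher genes, 9 are on the interferon list, 4 on the barrier activation list and 4 on the epidermal protease list. The 42 make up 37.2% of the genes that stood at least 1 higher on replicate 2 and 8.06% of those on replicate 3. The 25 make up 22.3% and 4.43% of the lower ones. Just inside the limit lay Ccr1 with a smaller distance of 1.00 and Dok1 with -1.02, and just outside it B4galnt2 with 0.999 and Mnd1 with -0.985. Without the minimum distance, both Spade arrays lay above both wild-type arrays for 1549 genes (12.9%) and below them for 2690 (22.4%). That split, 36.5% above, depended on the scaling: it was 47.6% above with MAS5 signals and 49.5% with quantile normalization.

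Keratins and secreted proteins of the epidermis were among the shared higher genes. Krt84, a hard keratin of nail and hair, read 9.16 and 9.07 on the Spade arrays, against 3.87 and 3.38 on the wild-type arrays, where it was called absent. The difference of at least 5.49 ± 0.79 (at least 44.9-fold) had a limma adjusted p of 0.18. Krt16, a keratin of injured and fast-renewing epidermis, read 12.84 and 12.29 on the Spade arrays, against 9.76 and 9.16 on the wild-type arrays. Both Spade levels of these keratins were close to each other and none came near a wild-type level. Krt6b, a keratin of the type that pairs with Krt16, read 10.49 and 10.19 in Spade, against 9.31 and 8.02 in wild type. Chil1, a chitinase-like protein released in inflamed tissue, stood at 13.44 and 12.27 in Spade, against 9.45 and 9.52 in wild type. Fetub, a cystatin-family protease inhibitor, had 8.94 and 7.25 in Spade, against 3.17 and 2.94 in wild type, a difference of 5.04 ± 1.75 (limma adjusted p = 0.59). Here the standard error is wide because the gene varied within groups over the 12 arrays. Epgn, a ligand of the EGF receptor, had 6.54 and 6.13 in Spade, against 3.52 and 4.33 in wild type. By contrast Btc, another ligand of that receptor, was among the shared lower genes at 7.71 and 7.99 in Spade, against 9.49 and 9.01 in wild type.

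Proteases and protease inhibitors of the outer epidermis formed a second set. Klk6, a kallikrein protease, read 11.17 and 11.26 in Spade ears, against 9.27 and 9.22 in wild-type ears. The inhibitor Wfdc18 read 6.62 and 6.49 in Spade, against 3.34 in each wild-type ear. The 4 levels of each gene fall into pairs whose members nearly coincide. Wfdc12 (difference 1.66 ± 0.76) and Prss27 (1.49 ± 0.64) were shared as well. Of the 20 tested genes of the epidermal protease list, 4 were shared higher (against 0.35% of all genes). This list and the others were chosen with earlier results of these data known. Their shares, set against all genes here and below, may therefore be partly built into that choice. Both Spade arrays lay above both wild-type arrays for 10 of the 20 (against 12.9% of all genes) and below for 1. The list median was 0.27 on replicate 2 and 0.61 on replicate 3, beside -0.07 and 0.00 over all genes tested. Kallikreins Klk5, Klk8 and Klk11, named after their values were seen, gave differences of 0.09, -0.27 and -0.09.

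The barrier activation list, made of keratins, small proline-rich proteins and antimicrobial proteins that the epidermis makes under stress, had 4 shared genes of 19 tested, Krt16, Chil1, Epgn and Krt6b. On both Spade arrays 10 of the 19 stood above both wild-type arrays (52.6%, against 12.9% of all genes) and 0 stood below (against 22.4%). The list median was 0.70 on replicate 2 and 0.86 on replicate 3. Besides the 4 shared genes, some members were displaced on 1 Spade array alone. Sprr1a, a cornified envelope precursor, read 12.41 and 14.98 in Spade, against 12.41 and 12.26 in wild type, so replicate 3 alone was displaced. Sprr2d, of a related family, read 8.17 and 5.16 in Spade, against 6.03 and 5.14 in wild type, and there replicate 2 alone was displaced. S100a9, a subunit of calprotectin, read 8.80 and 8.23 in Spade, against 6.80 and 7.97 in wild type, with no overlap but a difference of 1.13 ± 0.83. The 33 tested genes of the cornified envelope itself had medians of 0.13 on replicate 2 and -0.06 on replicate 3, with 5 above on both (15.2%, near the 12.9% of all genes) and 2 below (6.06%, against 22.4%). Lce1m, a late envelope protein, was the 1 shared lower gene among them, at 11.48 and 11.38 in Spade, against 13.15 and 12.51 in wild type.

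The remaining shared higher genes have varied roles. Pde1b, a calmodulin-dependent phosphodiesterase, read 8.95 and 8.21 in Spade, against 5.77 and 5.82 in wild type. Slc5a8, a transporter of short fatty acids, read 8.76 and 8.84 in Spade, against 6.89 and 6.86 in wild type. Within each genotype the levels of both genes lay less than 1 apart. The following genes fall outside the rule for named genes and were picked after their values were seen. Selp, the P-selectin by which vessel walls catch leukocytes, read 7.14 and 7.36 in Spade, against 5.59 and 5.58 in wild type. Lrg1, a secreted glycoprotein of the acute phase, read 9.75 and 9.27 in Spade, against 8.16 and 8.36 in wild type. Both stood clear of wild type on each Spade array. Csf2rb, the receptor chain shared by IL-3, IL-5 and GM-CSF, read 9.15 and 9.47 in Spade, against 8.29 and 7.97 in wild type. Slc7a11, the cystine transporter, read 4.29 and 4.14 in Spade, against 2.67 and 2.47 in wild type, a difference of 1.65 ± 0.23 (limma adjusted p = 0.18). Alox8, a lipoxygenase, read 5.82 and 3.45 in Spade, against 2.20 and 2.24 in wild type, where it was called absent.

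**Figure D2:**
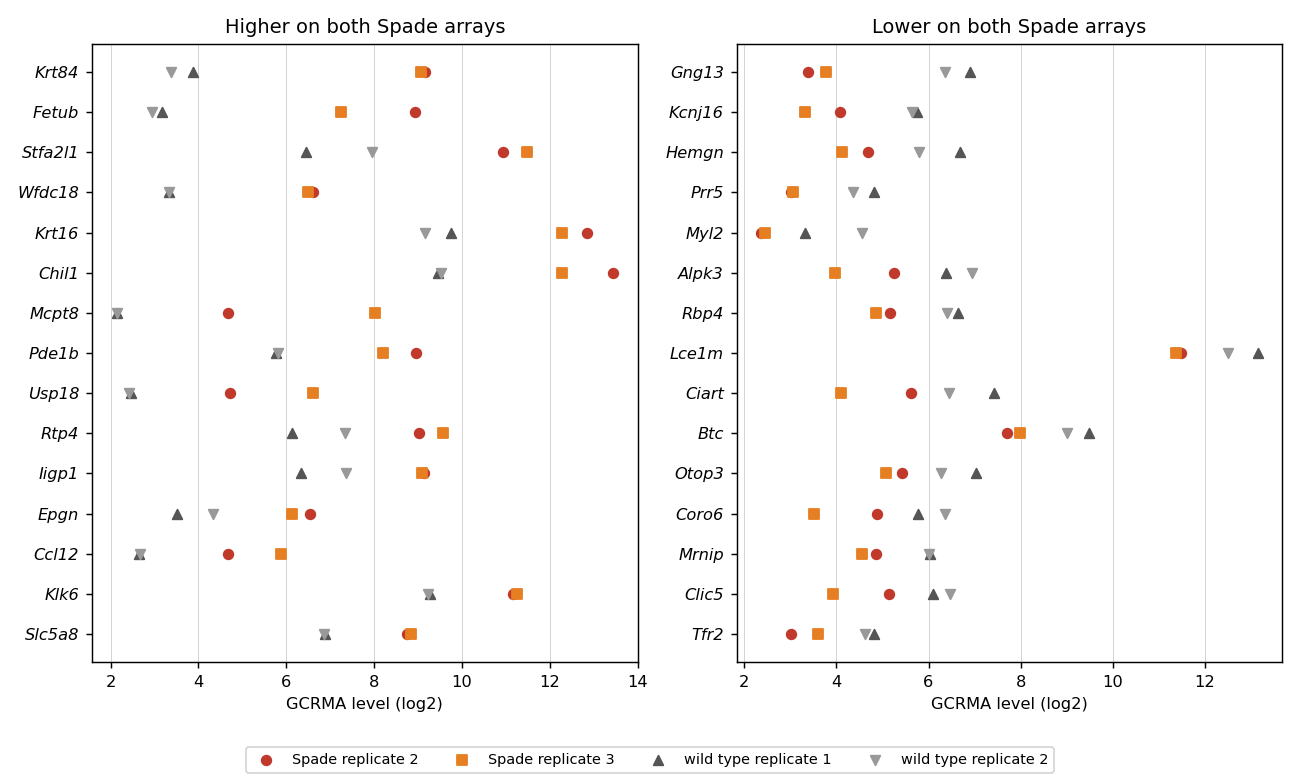
GCRMA level (log2, horizontal axis) on each of the 4 arrays for the 15 genes higher (left) and the 15 lower (right) on both Spade arrays with the largest smaller distance from wild type. Circles and squares are Spade replicates 2 and 3, triangles are wild-type replicates 1 and 2; the Spade points lie clear of the wild-type points by the rule that chose the genes, and for Krt84, Wfdc18, Klk6 and Slc5a8 the Spade points nearly coincide.

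Interferon-stimulated genes stood above wild type in both Spade ears, and further above it in replicate 3. Of 53 genes on the list, 45 are on the array and 38 passed the filter on low levels. Their mean level was 6.99 on Spade replicate 2 and 8.04 on replicate 3, against 6.04 and 6.49 on the wild-type arrays. On replicate 2, 35 of the 38 stood above the wild-type mean and 10 by at least 1 (against 0.943% of all genes). On replicate 3 all 38 stood above it and 30 by at least 1 (against 4.35% of all genes). Over all 11984 genes tested, 4385 stood above it on replicate 2 and 5959 on replicate 3. The Spade arrays both lay above both wild-type arrays for 29 of the 38 (76.3%, against 12.9% of all genes) and below for 0. These counts leave out Oasl1, Oas2, Oas3, Mx1, Mx2, Ifi44l and Ifi203, which failed the filter. They read between 2.14 and 2.60 on all 4 arrays. A gene low in wild type could pass the filter through Spade arrays, so the counts may be partly built into it. Outside the list, Oas1c and Ifi202b, related by name to its members Oas1a and Ifi204, were shared lower. Oas1c read 5.98 and 5.80 in Spade, against 7.50 and 6.52 in wild type. Ifi202b read 5.46 and 5.39 in Spade, against 6.59 and 6.54 in wild type. MAS5 called both absent on the Spade arrays, and both were named after their values were seen. The list median was 0.59 on replicate 2 and 1.50 on replicate 3. None of the 38 passed limma with both arrays in the fit, and 23 were higher at an unadjusted p under 0.05 (against 2.8% of all genes). In the fit of replicate 3 alone 25 passed (against 4.56% of all genes), and in that of replicate 2 alone 0 did.

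The shared members of the list were Usp18, Rtp4, Iigp1, Ifi27l2a, Oasl2, Xaf1, Gbp3, Irf9 and Parp9. Of these, Oasl2 read 4.82 and 8.42 in Spade, against 2.14 and 4.47 in wild type, and MAS5 called it absent on Spade replicate 2. Usp18, which removes ISG15 from proteins and damps the type I interferon receptor, read 4.73 and 6.62 in Spade, against 2.46 and 2.41 in wild type, a difference of 3.24 ± 0.59 (limma adjusted p = 0.29). Iigp1, an interferon-induced GTPase, read 9.13 and 9.10 in Spade, against 6.34 and 7.36 in wild type, so that the Spade arrays matched each other more closely than the wild-type arrays did. Rtp4 read 9.02 and 9.57 in Spade, against 6.13 and 7.34 in wild type. Irf9, a DNA-binding transcription factor of the type I interferon response, read 9.13 and 9.48 in Spade, against 8.02 and 8.14 in wild type. In contrast Oas1a, an enzyme that senses double-stranded RNA, read 4.44 and 7.74 in Spade, against 4.24 and 4.44 in wild type. It was displaced on replicate 3 alone, although MAS5 called it absent on all 4 arrays. Also displaced on replicate 3 alone were Dhx58, Rsad2 and Trim30a of the same list. Ifit1, which binds foreign RNA, read 3.18 and 6.39 in Spade, against 2.14 and 2.39 in wild type; replicate 2 stood 0.92 above the wild-type mean and so just missed the limit.

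Genes of this list often carry the letters that interferon-activated complexes recognise. The motif searched was GAAANNGAAA on either strand, the core of the interferon-stimulated response element, in windows of 250 bases before to 50 bases after the annotated start, from RefSeq on mouse build GRCm38.p6. A window was given for 28 of the 38 tested list genes, and 16 of these held the motif (57.1%), against 1079 of 27025 genes with a window (3.99%). The STAT palindrome TTCNNNGAA, which may overlap the first motif in a window, was found in 8 of the 28 (28.6%), against 9.55% of all genes. Among the 42 shared higher genes, 33 have a window, and 3 held the interferon motif and 3 the STAT palindrome (9.09% each). Among the 25 shared lower genes, 22 have a window, and the shares were higher, with 3 holding the interferon motif (13.6%) and 5 the STAT palindrome (22.7%). Of the 9 shared genes of the interferon list 4 have a window, and 1 held the interferon motif and 0 the STAT palindrome. The windows below are the 4 list genes with the motif that stood highest by the smaller of the 2 Spade distances, shown so that the motif can be read beside the levels. Igtp, which holds the motif too, tied with Ifit1 for the last place at a rounded distance of 0.92 and is not printed. Capitals mark the motif, the sequence runs 5′ to 3′ on the gene's strand, and a run written TTTCNNTTTC is the same motif on the opposite strand.
Gbp3, chr3:142559794-142560093, + strand: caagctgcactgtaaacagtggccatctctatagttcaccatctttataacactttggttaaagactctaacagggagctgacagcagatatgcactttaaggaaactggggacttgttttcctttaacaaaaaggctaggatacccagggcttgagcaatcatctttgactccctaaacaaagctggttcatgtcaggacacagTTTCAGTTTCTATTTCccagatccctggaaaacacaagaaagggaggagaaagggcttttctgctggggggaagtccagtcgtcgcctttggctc
Irgm2, chr11:58214727-58215026, + strand: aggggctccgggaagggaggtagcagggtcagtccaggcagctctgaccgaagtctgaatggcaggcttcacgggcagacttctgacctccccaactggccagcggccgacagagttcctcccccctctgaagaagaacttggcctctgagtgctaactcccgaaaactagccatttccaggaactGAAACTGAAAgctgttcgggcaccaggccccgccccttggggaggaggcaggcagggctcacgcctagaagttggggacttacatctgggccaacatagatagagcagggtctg
Ifih1, chr2:62646206-62646505, - strand: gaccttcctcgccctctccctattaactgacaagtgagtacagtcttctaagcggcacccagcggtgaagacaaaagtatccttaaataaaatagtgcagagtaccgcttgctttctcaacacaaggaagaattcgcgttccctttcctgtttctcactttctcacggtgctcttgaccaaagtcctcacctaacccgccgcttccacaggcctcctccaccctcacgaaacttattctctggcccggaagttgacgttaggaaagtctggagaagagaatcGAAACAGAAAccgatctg
Ifit1, chr19:34640639-34640938, + strand: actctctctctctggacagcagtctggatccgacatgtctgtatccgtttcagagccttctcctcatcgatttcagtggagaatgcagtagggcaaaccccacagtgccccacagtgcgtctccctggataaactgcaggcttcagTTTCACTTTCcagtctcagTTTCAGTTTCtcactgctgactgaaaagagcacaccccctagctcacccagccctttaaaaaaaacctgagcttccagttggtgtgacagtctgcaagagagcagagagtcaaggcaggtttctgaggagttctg

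The Gbp3 window holds 2 overlapping matches that begin 45 and 39 bases before the start, and Ifit1 holds 2 that begin 104 and 85 bases before it. Irgm2 has 1 match, 64 bases before the start, and Ifih1 has 1, 32 bases after it. Gbp3, a guanylate-binding GTPase, read 6.88 and 7.93 in Spade, against 5.32 and 6.20 in wild type. Irgm2, a GTPase of another interferon-induced family, read 7.80 and 8.57 in Spade, against 6.41 and 7.24 in wild type. Ifih1, the RNA sensor MDA5, read 9.26 and 9.34 in Spade, against 8.27 and 8.32 in wild type. The Spade and wild-type levels of the 4 genes did not overlap, which their choice by distance from wild type all but fixes. The letters were not tested for use by any factor in this tissue.

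Other genes of the JAK-STAT pathway lay on both sides of wild type. The 33 tested members had a median of -0.03 on replicate 2 and -0.04 on replicate 3. Both Spade arrays lay above both wild-type arrays for 9 of them (27.3%, against 12.9% of all genes) and below for 4 (12.1%, against 22.4%). In limma 0 passed, while 6 were higher and 2 lower at an unadjusted p under 0.05, against 2.8% and 5.31% of all genes. In the fit of replicate 3 alone 6 were lower and 1 higher after adjustment, against 5.34% and 4.56% of all genes. Bcl3, a nuclear cofactor of NF-kappaB, was the 1 shared gene among them, at 6.37 and 7.01 in Spade, against 4.85 and 5.30 in wild type. Socs3, the feedback inhibitor of the gp130 receptors, read 11.41 and 10.39 in Spade, against 9.20 and 9.77 in wild type, a difference of 1.42 ± 0.61 (limma adjusted p = 0.60). Il20ra, a receptor chain for IL-20-family cytokines, read 7.71 and 4.55 in Spade, against 7.71 and 7.85 in wild type, and was displaced on replicate 3 alone.

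Leukocyte lists held many genes that stood above wild type in both Spade ears. In bulk tissue, more cells of a type and more RNA per cell cannot be told apart, and the same holds for fewer and less. Of 30 tested macrophage and dendritic cell genes, 18 stood above both wild-type arrays on both Spade arrays (60.0%, against 12.9% of all genes) and 1 below. Their median was 0.24 on replicate 2 and 0.90 on replicate 3. Ccr2, the receptor that brings monocytes out of blood, was the shared member, at 9.05 and 8.93 in Spade, against 7.22 and 7.94 in wild type. Its difference of 1.41 came from the brightest probe set, and 2 other probe sets above the filter level gave 0.92 and 0.05. Spi1, the transcription factor PU.1, read 7.96 and 8.06 in Spade, against 6.82 and 7.15 in wild type. Plac8 read 6.39 and 8.36 in Spade, against 6.14 and 6.50 in wild type, and was displaced on replicate 3 alone.

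Of 14 tested genes of the cytokine list, 2 were shared, the chemokines Ccl6 and Ccl12. Both Spade arrays lay above both wild-type arrays for 5 of the 14 (35.7%, against 12.9% of all genes) and below for 1 (7.14%, against 22.4%), and the list median was 0.41 on replicate 2 and 0.28 on replicate 3. Ccl8, a chemokine of the type 2 list that draws monocytes, read 11.37 and 11.82 in Spade, against 9.98 and 9.97 in wild type, a difference of 1.62 ± 0.19 (limma adjusted p = 0.15). Ccl6, which acts on monocytes too, gave 11.49 and 11.55 in Spade, against 10.36 and 10.23 in wild type. The wild-type arrays lay close together for both genes, and each Spade array stood above them. Ccl12 read 4.68 and 5.89 in Spade, against 2.65 and 2.67 in wild type, where it was called absent. On Spade replicate 2 MAS5 called it absent as well. Of the 12 tested genes of the type 2 list, to which Ccl8 belongs, 5 lay above on both arrays (41.7%, against 12.9% of all genes) and 2 below (16.7%, against 22.4%), with medians of 0.28 and 0.05 on replicates 2 and 3. The cytokine genes Il4, Il13, Il5 and Il31 of that list did not pass the filter on low levels.

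The mast cell and basophil, neutrophil and T cell lists had fewer tested genes. Mcpt8, a protease of basophils, read 4.68 and 8.02 in Spade, against the floor of 2.14 on both wild-type arrays, a difference of at least 4.21 ± 1.18 (limma adjusted p = 0.58). MAS5 called it present on 1 of the Spade arrays. The other 11 tested mast cell and basophil genes were not shared, and the list median was 0.00 on replicate 2 and 0.47 on replicate 3. The high-affinity IgE receptor chain Fcer1a read 2.14 and 2.94 in Spade, against 2.14 in each wild-type ear. Of 6 tested neutrophil genes, 4 stood above both wild-type arrays on both Spade arrays (66.7%, against 12.9% of all genes) and 0 below, with medians of 1.24 on replicate 2 and 0.86 on replicate 3. Among them Stfa2l1 (10.93 and 11.49 in Spade, against 6.46 and 7.96 in wild type) and Stfa3 (11.04 and 13.92 in Spade, against 9.58 and 10.39 in wild type) were shared. Both encode stefins, and probes for stefin genes can read near-identical copies. Also above were S100a9, which is on the barrier activation list too, and Cxcr2, which was displaced on replicate 2 alone. Csf3r, Mmp8, Ngp, Camp, Ltf and Trem1 of the neutrophil list failed the filter on low levels. They read between 2.14 and 3.19 on the 4 arrays. Of 9 tested T cell genes 4 stood above both wild-type arrays on both Spade arrays (44.4%, against 12.9% of all genes) and 1 below (11.1%, against 22.4%). Among the 4 was Cd3d at 8.23 and 7.70 in Spade, against 7.35 and 6.95 in wild type.

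Genes of antigen presentation showed small differences in 1 direction. All 16 tested members stood above both wild-type arrays on both Spade arrays, against 12.9% of all genes. The median was 0.38 on replicate 2 and 0.40 on replicate 3, beside 0.59 and 1.50 for the interferon list. Psmb9, a subunit of the immunoproteasome, read 7.89 and 8.42 in Spade, against 7.22 and 7.15 in wild type. Nlrc5, the activator of MHC class I genes, read 7.20 and 6.75 in Spade, against 5.91 and 6.30 in wild type. Of the 16, 9 had an unadjusted p under 0.05 (against 2.8% of all genes in this direction) and 0 passed after adjustment in limma.

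The 25 shared lower genes had a median difference of -1.51, beside 1.86 for the 42 higher ones, with 8 and 4 of these differences known only as bounds. Gng13, a G protein gamma subunit known from taste cells, read 3.39 and 3.77 in Spade, against 6.90 and 6.35 in wild type, a difference of -3.05 ± 0.89 (limma adjusted p = 0.59). Kcnj16, a potassium channel, read 4.07 and 3.31 in Spade, against 5.74 and 5.64 in wild type. Hemgn, a nuclear protein of red cell precursors, read 4.69 and 4.12 in Spade, against 6.68 and 5.79 in wild type. MAS5 called Kcnj16 absent on both Spade arrays, so the size of its difference is known only as a lower bound (limma adjusted p = 0.18). The muscle gene Alpk3 was shared lower as well, with a difference of -2.07 ± 0.47. Myl2, a muscle myosin light chain, read 2.37 and 2.44 in Spade, where it was called absent, against 3.32 and 4.56 in wild type, so its difference of -1.54 ± 0.59 is a lower bound on the size. Ciart, which follows the daily clock, read 5.62 and 4.09 in Spade, against 7.42 and 6.44 in wild type. Per1, a clock gene too, read 9.26 and 8.22 in Spade, against 10.53 and 10.05 in wild type. For both, replicate 3 stood further below wild type than replicate 2. Rbp4, the carrier of retinol, read 5.16 and 4.86 in Spade, against 6.63 and 6.41 in wild type. Tfr2, a transferrin receptor, read 3.01 and 3.59 in Spade, against 4.82 and 4.61 in wild type. Spade and wild-type levels of each did not overlap, although all were low. With MAS5 signals the differences shrank from -1.51 to -0.28 for Rbp4 and from -1.42 to -0.38 for Tfr2. Tfr2 was called absent on Spade replicate 2. With MAS5 signals 22 of the 25 kept their direction, but 4 met the rule again. Of the 42 higher genes all kept their direction and 26 met the rule again.

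Among the lists, that of the hair shaft and inner root sheath had the widest gap between the Spade medians. Of 65 on the list, 52 are on the array and 35 were tested, and their mean level was 5.44 on Spade replicate 2 and 12.69 on replicate 3, against 5.76 and 6.63 on the wild-type arrays. Members that failed the filter on low levels are not in these means. Among them, Krt26, Krt82 and Krtap5-2 read 11.6, 8.67 and 10.28 on Spade replicate 3 and between 2.14 and 2.29 on the other 2-week arrays. Krtap13 lay at the floor on all of them. All 35 tested genes stood above the wild-type mean on replicate 3, each by at least 1 (against 4.35% of all genes). On replicate 2, 32 of the 35 stood below it, 15 by at least 1 (against 0.935% of all genes). A gene could pass the filter with only replicate 3 and 1 wild-type array at 4 or more. The place of replicate 3 above wild type and of replicate 2 below it may therefore be partly built into the filter. The list median was -0.69 on replicate 2 and 6.45 on replicate 3, so the average of the Spade arrays, 2.91, describes neither ear. In the fit of replicate 3 alone 32 of the 35 passed limma as higher (against 4.56% of all genes), and in that of replicate 2 alone 0 did.

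Hard keratins and the proteins they are embedded in show the gap gene by gene. Krt81, a keratin of the hair cortex, read 3.73 and 11.75 in Spade, against 4.10 and 3.90 in wild type. Krtap4-16, a keratin-associated protein, read 2.39 and 12.42 in Spade, against 3.38 and 4.25 in wild type. For both genes replicate 2 lay under both wild-type arrays and replicate 3 far above them. Krt71, a keratin of the inner root sheath, read 7.66 and 14.41 in Spade, against 7.65 and 8.45 in wild type. Krt27 of the same layer read 9.27 and 15.62 in Spade, against 9.31 and 9.81 in wild type. Krt84, the 1 shared gene of the 35 tested, differed from these in reading nearly alike on both Spade arrays. Vsig8, known from the hair shaft, read 3.46 and 9.94 in Spade, against 3.17 and 4.27 in wild type. Gprc5d, a receptor of hair keratinising cells, read 2.33 and 10.29 in Spade, against 2.18 and 4.16 in wild type. The 18 hair follicle regulators had a median of -0.15 on replicate 2 and 1.18 on replicate 3. Of 34 tested cell cycle genes, 33 lay under the wild-type mean on replicate 2, against 7513 of all 11984 genes, and 32 lay over it on replicate 3, against 5959 of all genes. Their medians were -0.48 and 0.28.

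**Figure D3:**
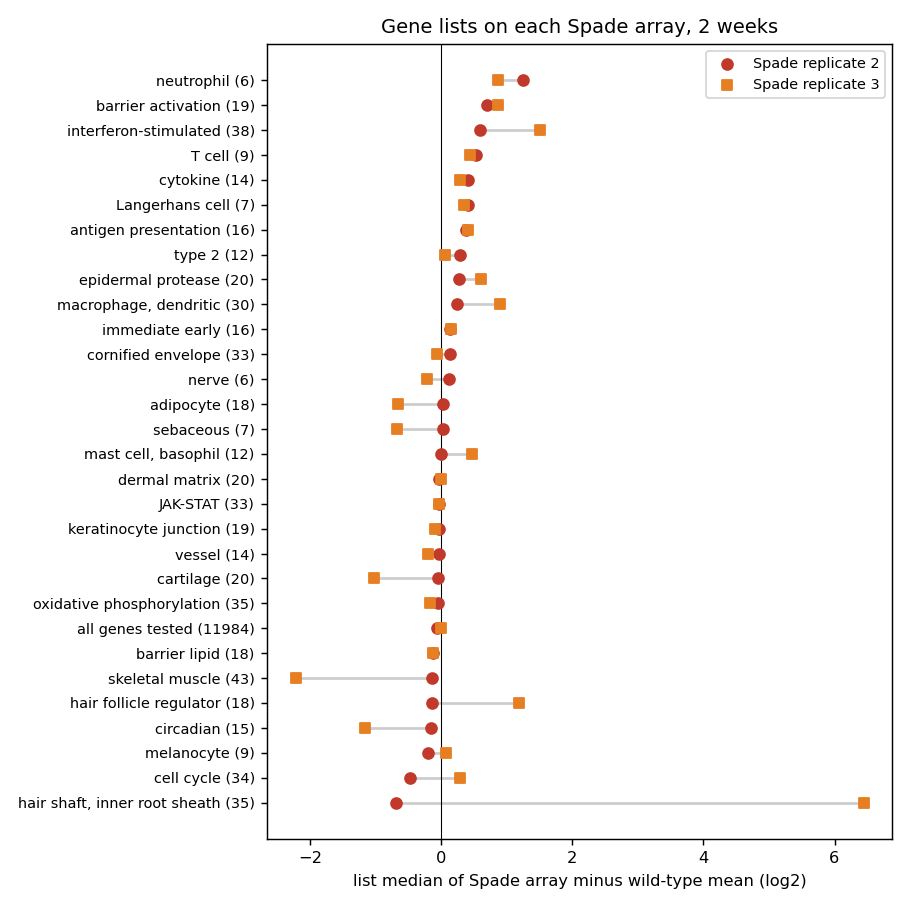
Median difference from the wild-type mean (log2, horizontal axis) over the tested genes of each list, on Spade replicate 2 (circles) and Spade replicate 3 (squares), with the number of genes in brackets. The hair shaft list lies at -0.69 and 6.45 and the skeletal muscle list at -0.15 and -2.22, while antigen presentation lies at 0.38 and 0.40.

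By the rule for replicate 3 alone, which asks for at least 2 on replicate 3 and under 0.5 on replicate 2, 60 genes were higher (0.501%) and 138 lower (1.15%). Of the 60 higher genes, 11 are on the hair shaft list and 4 on the interferon list. Another 26 genes were at least 1 higher on replicate 3 and at least 1 lower on replicate 2, 15 of them on the hair shaft list. The lower group was led by A2m, a protease inhibitor of plasma, at 11.46 and 4.35 in Spade, against 11.44 and 11.75 in wild type. Here replicate 2 lay between the wild-type arrays.

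Skeletal muscle genes made up 23 of the 138 lower genes, whose rule 1.15% of all genes met. Of 43 tested muscle genes, 36 stood at least 1 below the wild-type mean on replicate 3 (against 4.71% of all genes). On replicate 2 only 1 of the 43 did so (against 0.935%). Their mean level was 10.30 on Spade replicate 2 and 8.40 on replicate 3, against 10.38 and 10.62 on the wild-type arrays. Both Spade arrays lay below both wild-type arrays for 26 of the 43 (60.5%, against 22.4% of all genes), yet the median was only -0.15 on replicate 2, against -2.22 on replicate 3. Mb, the oxygen carrier myoglobin, read 10.21 and 5.57 in Spade, against 10.53 and 10.52 in wild type. Myh2, the myosin of fast oxidative fibres, read 10.32 and 5.27 in Spade, against 10.73 and 10.84 in wild type. Ckmt2, a mitochondrial creatine kinase of muscle, read 9.89 and 3.62 in Spade, against 9.83 and 10.33 in wild type. Acta1, the actin of skeletal muscle, differed less, at 14.81 and 13.40 in Spade, against 14.79 and 14.99 in wild type.

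Cartilage, fat and clock genes stood lower on replicate 3 too. The 20 cartilage genes had a median of -0.05 on replicate 2 and -1.02 on replicate 3. Comp, a matrix protein of cartilage and tendon, read 8.70 and 4.63 in Spade, against 8.72 and 8.76 in wild type. Col2a1, the main cartilage collagen, read 12.48 and 12.27 in Spade, against 12.35 and 12.74 in wild type, and so was not displaced. The 18 adipocyte genes had a median of 0.03 on replicate 2 and -0.66 on replicate 3, and the 15 clock genes -0.16 and -1.17. Nr1d1, the clock repressor REV-ERBalpha, read 8.54 and 5.28 in Spade, against 9.02 and 8.38 in wild type. Lists of dermal matrix (-0.03 and 0.00), keratinocyte junctions (-0.04 and -0.10) and barrier lipids (-0.12 and -0.12) were near 0 on both Spade arrays. So were the medians of the vessel list (-0.04 and -0.21), oxidative phosphorylation (-0.05 and -0.18) and immediate early genes (0.13 and 0.15). Yet both Spade arrays lay below both wild-type arrays for 15 of 35 oxidative phosphorylation genes (42.9%, against 22.4% of all genes) and above for 1. Of that list, Cox7a1 differed by -0.61 on replicate 2 and -3.48 on replicate 3, and Cox8b by -0.50 and -3.52. For immediate early genes they lay above for 7 of 16 (43.8%, against 12.9%) and below for 0. Sebaceous genes had medians of 0.02 on replicate 2 and -0.68 on replicate 3, nerve genes 0.11 and -0.22, and melanocyte genes -0.20 and 0.07. The part of hair cycle stage, of the share of muscle in a sample or of the hour of sampling in any of these differences was not tested.

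**Figure D4:**
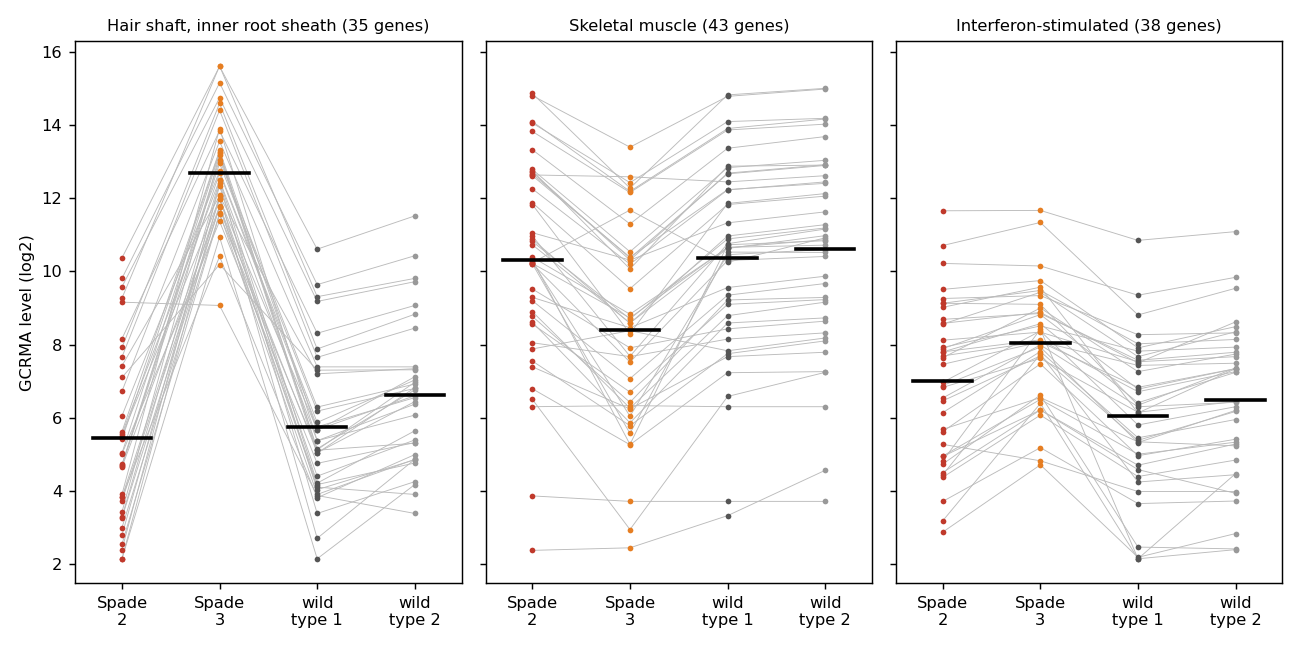
GCRMA level (log2, vertical axis) of each tested gene of 3 lists on Spade replicates 2 and 3 and wild-type replicates 1 and 2; points are genes, grey lines join a gene across arrays and black bars are the mean over the list. Hair shaft genes averaged 12.69 on Spade replicate 3 and between 5.44 and 6.63 on the other arrays, muscle genes 8.40 on that array and between 10.30 and 10.62 on the others, and interferon-stimulated genes 6.99 and 8.04 on the Spade arrays, against 6.04 and 6.49 in wild type.

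Fewer genes were displaced on replicate 2 alone, 6 higher (0.0501%) and 2 lower (0.0167%) by the same limits with the arrays exchanged. Saa1, an acute phase protein, read 7.88 and 2.73 in Spade, against 2.33 and 2.60 in wild type. Cxcr2, a chemokine receptor of neutrophils, read 6.59 and 3.62 in Spade, against 3.35 and 2.99 in wild type. Lce3f, a late cornified envelope protein of stressed epidermis, read 6.64 and 4.13 in Spade, against 4.50 and 3.04 in wild type. Atp13a5, Sprr2d and Sprr2i were the other higher genes. Scgb1a1 and Cep128 were the lower ones, with Scgb1a1 at 4.04 and 6.61 in Spade, against 7.07 and 6.49 in wild type. Another 6 genes were at least 1 higher on replicate 2 and at least 1 lower on replicate 3, and they were Cap1, Krt24, Fam81a, Il6ra, Il1f8 and Nrip1.

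The arrays of 4 and 6 weeks, which entered the filter on low levels but not the rules of distance at 2 weeks, placed most shared higher genes on the same side. At 4 weeks both Spade arrays lay above both wild-type arrays for 32 of the 42 (76.2%, against 16.1% of all genes) and below for 0. At 6 weeks they did so for 42 of the 42 (against 19.8% of all genes). The median difference of the 42 was 1.86 at 2 weeks, 1.43 at 4 weeks and 2.56 at 6 weeks. Krt84 differed by at least 5.49 at 2 weeks, by 2.74 at 4 weeks and by 4.15 at 6 weeks, while Krt6b differed by 1.67, 3.58 and 8.15. Ccl12 differed by at least 2.63 at 2 weeks, by -0.30 at 4 weeks and by 2.88 at 6 weeks. Of the 25 shared lower genes, both Spade arrays lay below both wild-type arrays for 9 at 4 weeks (36.0%, against 15.9% of all genes) and for 18 at 6 weeks (72.0%, against 25.7%). At 4 weeks 3 of them, Oas1c, Atp10d and Ciart, lay above. Their median was -1.51 at 2 weeks, -0.39 at 4 weeks and -0.78 at 6 weeks. Since genes were chosen for their size at 2 weeks, a smaller median at another age is partly built into the choice.

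Genes displaced on replicate 3 alone were set against the same later arrays. Of the 60 higher genes, the Spade arrays lay above for 11 and below for 11 at 4 weeks, and above for 21 and below for 6 at 6 weeks. Over all genes the shares above and below were 16.1% and 15.9% at 4 weeks and 19.8% and 25.7% at 6 weeks. Of the 138 lower genes they lay below for 66 and above for 7 at 4 weeks, and below for 56 and above for 5 at 6 weeks. At the later ages 1 array of each comparison differed in sex-linked RNA: Xist read 2.74 on 1 Spade array of 4 weeks and 2.77 on 1 wild-type array of 6 weeks, and its part in these counts was not tested. The 35 tested hair shaft genes averaged between 2.87 and 4.52 on the 8 later arrays, below every 2-week array. The filter on low levels may have a part in this order, which was not tested. A gene passed it with replicate 3 and 1 other array at 4 or more. Of the genes displaced on replicate 2 alone, Saa1 differed by 3.35 at 4 weeks and 5.45 at 6 weeks, Sprr2d by 2.94 and 5.73, and Scgb1a1 by -1.64 and -3.17. The test of the 2-week difference against the mean of the later differences called 0 genes in limma (0.0%), with 178 higher and 346 lower at an unadjusted p under 0.05. No age difference is therefore shown for any gene named here. The rank product was not run on that contrast.

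**Figure D5:**
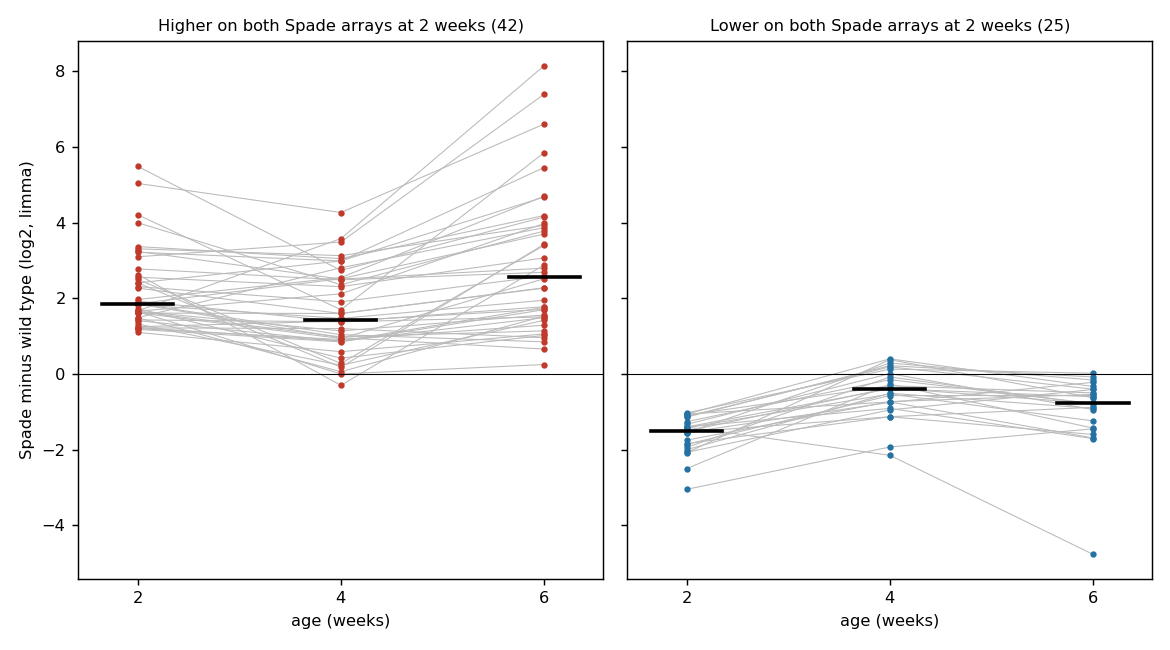
Spade minus wild type (log2, limma) at 2, 4 and 6 weeks for the 42 genes higher (left) and the 25 lower (right) on both Spade arrays at 2 weeks; grey lines join a gene, black bars are medians. The higher genes have medians of 1.86, 1.43 and 2.56, and the lower ones of -1.51, -0.39 and -0.78.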

How the data were processed

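The log2 values used throughout are GCRMA values as deposited by the authors, who corrected background, normalized and summarised each probe set, per the series design text, in a version not given in the sources used here. The intensity values are MAS5 signals with detection calls, deposited by the authors per array on a linear scale. They were used for detection calls and, with a floor of 50 and log2 transformation, as an alternative.

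Each of 18194 genes was represented by the probe set with the highest mean among those naming only that gene. The 11984 genes with a level of 4 or more on at least 2 of 12 arrays were tested in limma 3.58.1 (R 4.3.3) with 6 group means, 6 residual degrees of freedom, a variance trend and Benjamini-Hochberg adjustment over all tested genes. The script was tested on simulated data. Rank products used an implementation written for this purpose (Python 3.11.15, numpy 2.4.6, 1000 permutations). A difference is given as at least its fitted value where MAS5 called the gene absent on every array of the dimmer group.

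Named genes are Jak1, the 15 highest and 15 lowest shared genes, the 10 highest and 10 lowest of replicate 3 alone, 5 and 5 of replicate 2 alone, rank product calls and up to 6 members of each list. Genes of a short count, all 9 shared interferon genes, other genes of the replicate 3 comparisons, kallikreins, promoter genes, markers and threshold neighbours were named after their values were seen. The members and the 32 lists were chosen with earlier results of these data known. The number of arrays limits the precision. Alternatives covered the filter, probe sets, MAS5, scaling, variance prior, array weights, sex, and 2-week arrays left out.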

Additional observations from a re-analysis of the deposited data

How the results depend on the processing

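No paired analysis was possible because the 2-week groups share only replicate number 2. The count of 0 genes at 2 weeks became 6 with no filter on low levels, 1 without the variance trend and 3 by the rank product criterion, and ranged from 0 to 1187 with each of the 4 arrays of 2 weeks left out in turn, the 1187 arising without Spade replicate 2 and 2 genes without Spade replicate 3. The count for the age difference became 9 with no filter and ranged from 0 to 560 with each of these 4 arrays left out, again highest without Spade replicate 2. The 8 later arrays were not left out. The 42 shared higher genes numbered 37 with MAS5 signals and 52 with quantile normalization. They numbered from 42 to 66 with a wild-type array left out, 66 without wild-type replicate 2. The 25 shared lower genes numbered 7 with MAS5 signals and 32 without either wild-type array, where fewer arrays set the rule. The 60 genes higher on replicate 3 alone numbered 118 with no filter, 38 with a filter at 6, and from 48 to 73 with a wild-type array left out. The 138 lower ones numbered 60 with MAS5 signals and from 116 to 125 with a wild-type array left out. With the mean of probe sets, the shared genes numbered 34 higher and 17 lower. Those of replicate 3 alone then numbered 50 higher and 101 lower. The cause was not tested. The hair shaft median of 2.91 became 6.45 without Spade replicate 2 and turned to -0.69 without replicate 3, the muscle median of -1.23 became -2.22 and -0.15, and the interferon median of 1.08 became 1.50 and 0.59. The median of all genes moved by under 0.1 with each scaling. The alternatives of the count of genes whose groups do not overlap were chosen after seeing the data.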
